A study of Saccharomyces cerevisiae with 28 samples.

Results

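The genes described here encode enzymes of the mitochondrial tricarboxylic acid cycle in baker's yeast, Saccharomyces cerevisiae. They are CIT1, ACO1, IDH1, IDH2, KGD1, KGD2, LSC1, LSC2, FUM1 and MDH1. They were chosen by gene symbol in the array annotation. All 10 were found, with 1 probe set each, among the 5449 named S. cerevisiae genes on the array, and no filter on low values was applied. The study followed 2 baker's yeasts, named HS and LS in the labels, during fermentation with different amounts of sucrose. After 60 min in LF medium with 0, 5, 10, 20, 30, 40 or 50% sucrose, poly(A) RNA was extracted and read on Affymetrix arrays. Each of the 14 groups, HS at the 7 concentrations and LS at the same 7, had 2 arrays, which makes 28 in all. The labels expand neither HS, LS nor LF, give no genotype, and leave unsaid if the 2 replicates of a group were grown apart. The p-values below therefore reflect array-to-array spread, which may be technical.

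The cycle oxidises the acetyl group of acetyl-CoA and passes electrons to the respiratory chain, and its early steps also supply 2-oxoglutarate for amino acid synthesis. In S. cerevisiae, transcription of most of its genes is repressed while glucose or another rapidly fermented sugar is plentiful, and is raised by the Hap2/3/4/5 complex when respiration takes over. The first genes of the cycle, CIT1, ACO1, IDH1 and IDH2, can in addition be driven by the retrograde factors Rtg1 and Rtg3 in cells whose mitochondria do not respire.

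The deposited value is a ratio of the signal on an array to the usual signal of that probe set, so that 1 is a gene's median over the arrays. It can be compared between arrays but carries no level between genes. Fission yeast (S. pombe) probe sets on the same arrays served as a background. On the second LS arrays at 0, 5, 10, 20, 30 and 50% the median S. pombe ratio was 1.51 to 13.7, against 0.119 to 0.994 on the other 22 arrays. The correlation of replicate arrays over all S. cerevisiae probe sets was -0.222 to 0.501 in the 6 groups that hold these arrays and 0.471 to 0.870 in the other 8. Counts of genes called are therefore given on all 28 arrays and, in most comparisons, without these 6. Among the members, replicates differed by a median of 1.51 times in HS and 2.19 times in LS pairs with 1 of the 6 arrays, and at most 4.85 times in HS and 121 times in those LS pairs.

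**Figure D1:**
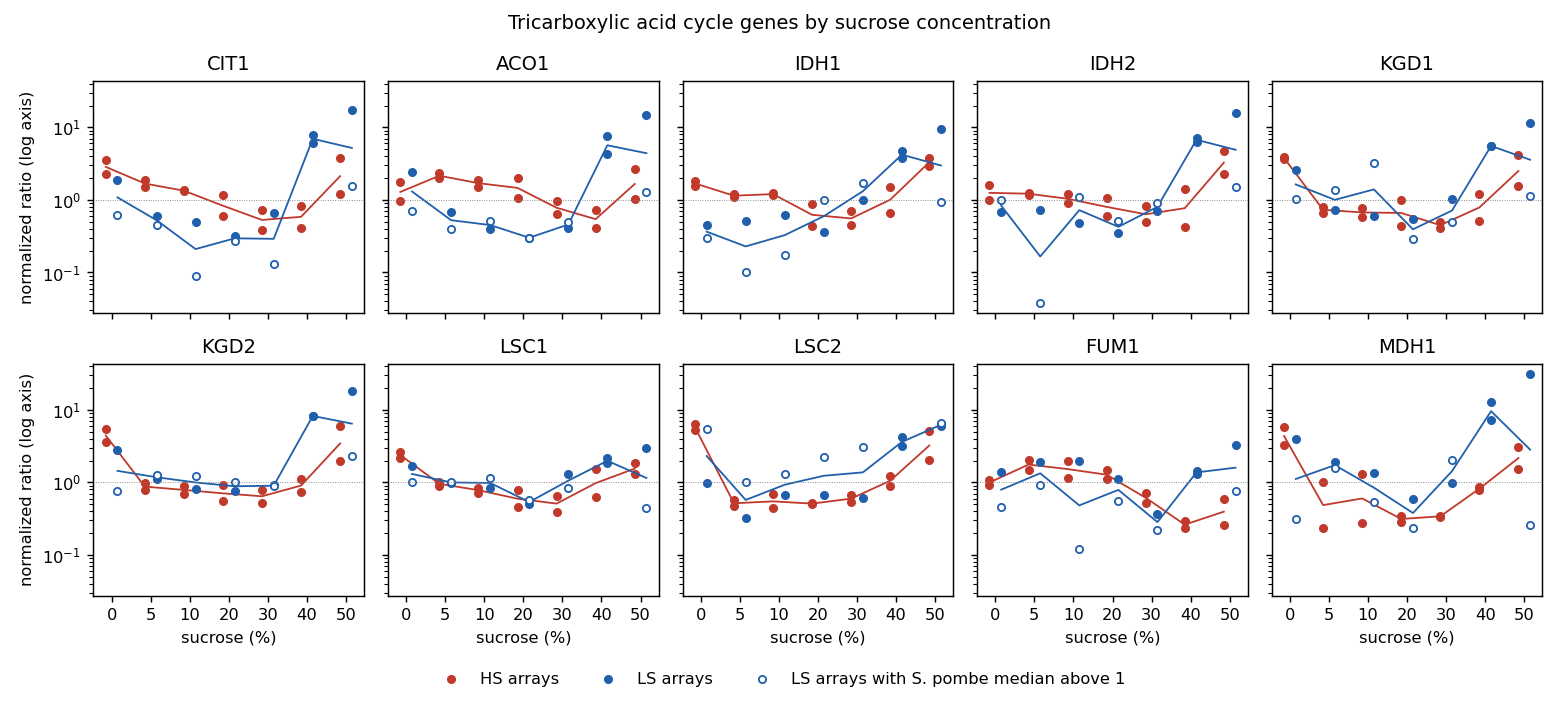
Normalized ratio (log axis) of each of the 10 genes by sucrose concentration (%). Points are arrays, HS in red and LS in blue, open for the 6 LS arrays that stand apart, and lines join the geometric means of the 2 arrays of a group. At 40% the HS arrays lie at or below 1.53 for all 10 genes, and the LS arrays lie above 3 for 8 of them.

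CIT1 (YNR001C) encodes mitochondrial citrate synthase, which condenses acetyl-CoA with oxaloacetate at the entry of the cycle. In HS its ratio was 3.60 and 2.26 at 0% sucrose, 0.597, 1.34 and 1.86 (lowest, median, highest of 6 arrays) at 5-20%, 0.386 and 0.727 at 30%, 0.409 and 0.838 at 40% and 1.21 and 3.73 at 50%. The 2 arrays without sucrose lay above all 6 arrays at 5-20%, and the arrays at 40% overlapped the lower end of the 5-20% range. In LS it was 1.88 and 0.625 at 0%, 0.0891, 0.389 and 0.610 at 5-20%, 0.657 and 0.129 at 30%, 7.93 and 6.11 at 40% and 17.6 and 1.54 at 50%. Both arrays at 40% and the first array at 50% stood above every other array of either yeast, and the second array at 50% was 11.4 times below the first. ACO1 (YLR304C), the aconitase that turns citrate into isocitrate, had 0.954 and 1.74 in HS at 0%, 1.06, 1.95 and 2.34 at 5-20%, 0.634 and 0.962 at 30%, 0.411 and 0.719 at 40% and 1.04 and 2.65 at 50%. Its HS values at 30 and 40% all lay below the lowest value at 5-20%. In LS the ACO1 ratio was 2.46 and 0.693 at 0%, 0.300, 0.399 and 0.688 at 5-20%, 0.417 and 0.503 at 30%, 7.56 and 4.25 at 40% and 15.0 and 1.29 at 50%. All 6 HS arrays at 5-20% lay above all 6 LS arrays at these concentrations.

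IDH1 (YNL037C) and IDH2 (YOR136W) encode the subunits of NAD-dependent isocitrate dehydrogenase, IDH1 the regulatory and IDH2 the catalytic one. In HS, IDH1 had 1.57 and 1.82 at 0%, 0.443, 1.13 and 1.23 at 5-20%, 0.445 and 0.695 at 30%, 0.664 and 1.53 at 40% and 3.75 and 2.92 at 50%. The arrays at 50% lay above all others of HS. In LS, IDH1 had 0.445 and 0.301 at 0%, 0.103, 0.433 and 0.994 at 5-20%, 1.01 and 1.73 at 30%, 4.72 and 3.75 at 40% and 9.44 and 0.943 at 50%. Here the arrays at 40% stood above every LS array except the first at 50%, and those at 0% lay within the 5-20% range. IDH2 had 0.992 and 1.58 in HS at 0%, 0.609, 1.12 and 1.26 at 5-20%, 0.491 and 0.820 at 30%, 0.423 and 1.40 at 40% and 2.28 and 4.68 at 50%. Its arrays at 50% lay above all others of HS, while those at 0, 30 and 40% overlapped the 5-20% range. In LS, IDH2 had 0.691 and 1.01 at 0%, 0.0384, 0.498 and 1.09 at 5-20%, 0.703 and 0.919 at 30%, 7.14 and 6.38 at 40% and 15.8 and 1.52 at 50%. The arrays at 40% and 50% lay above every other LS array.

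KGD1 (YIL125W) and KGD2 (YDR148C) encode the decarboxylase and the succinyltransferase component of the 2-oxoglutarate dehydrogenase complex. In HS, KGD1 had 3.71 and 3.88 at 0%, 0.444, 0.724 and 0.985 at 5-20%, 0.410 and 0.492 at 30%, 0.506 and 1.23 at 40% and 1.53 and 4.10 at 50%. The arrays at 0% and at 50% lay above all 6 arrays at 5-20%. In LS it had 2.60 and 1.03 at 0%, 0.287, 0.668 and 3.24 at 5-20%, 1.01 and 0.503 at 30%, 5.50 and 5.61 at 40% and 11.4 and 1.12 at 50%. The highest of the 5-20% arrays, the second at 10%, lay above both arrays at 0% and above the second at 50%. KGD2 had 5.49 and 3.59 in HS at 0%, 0.549, 0.835 and 0.987 at 5-20%, 0.527 and 0.788 at 30%, 0.746 and 1.10 at 40% and 1.99 and 5.95 at 50%. As for KGD1, the arrays at 0% and at 50% did not overlap those at 5-20%. In LS, KGD2 had 2.78 and 0.751 at 0%, 0.773, 1.06 and 1.26 at 5-20%, 0.915 and 0.886 at 30%, 8.31 and 8.18 at 40% and 18.1 and 2.31 at 50%. The first array at 0% and all arrays at 40 and 50% lay above the 5-20% range, and those at 30% lay within it.

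LSC1 (YOR142W) and LSC2 (YGR244C) encode the alpha and beta subunits of succinyl-CoA ligase. In HS, LSC1 had 2.64 and 2.15 at 0%, 0.454, 0.813 and 1.02 at 5-20%, 0.395 and 0.660 at 30%, 0.628 and 1.52 at 40% and 1.29 and 1.86 at 50%. Its arrays at 0 and 50% lay above the 5-20% range, and the first array at 0%, at 2.64, was the highest of HS. In LS, LSC1 had 1.68 and 1.02 at 0%, 0.506, 0.913 and 1.15 at 5-20%, 1.32 and 0.845 at 30%, 1.82 and 2.16 at 40% and 2.98 and 0.445 at 50%. The second array at 50% was the lowest of all LS arrays for this gene and the first was the highest. LSC2 had 5.24 and 6.38 in HS at 0%, 0.440, 0.510 and 0.683 at 5-20%, 0.533 and 0.670 at 30%, 0.905 and 1.23 at 40% and 2.02 and 5.14 at 50%. The arrays at 0, 40 and 50% all lay above the 5-20% range, those at 0% highest. In LS, LSC2 had 0.983 and 5.46 at 0%, 0.323, 0.845 and 2.27 at 5-20%, 0.614 and 3.08 at 30%, 3.13 and 4.17 at 40% and 5.91 and 6.58 at 50%. It was the member on which the 2 LS arrays at 50% lay closest to each other.

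FUM1 (YPL262W) encodes fumarase, which works in mitochondria and in the cytosol from 1 gene. In HS its ratio was 0.935 and 1.06 at 0%, 1.11, 1.49 and 2.07 at 5-20%, 0.725 and 0.520 at 30%, 0.232 and 0.296 at 40% and 0.261 and 0.599 at 50%. The arrays at 30, 40 and 50% all lay below the lowest array at 5-20%, so FUM1 was low in HS at 50%, where IDH1, IDH2, KGD1, KGD2, LSC1, LSC2 and MDH1 were above their 5-20% range. In LS, FUM1 had 1.37 and 0.460 at 0%, 0.119, 1.02 and 1.96 at 5-20%, 0.363 and 0.222 at 30%, 1.45 and 1.30 at 40% and 3.32 and 0.770 at 50%. The LS arrays at 40% lay inside the wide 5-20% range. MDH1 (YKL085W) encodes the mitochondrial malate dehydrogenase that closes the cycle. In HS it had 5.82 and 3.28 at 0%, 0.235, 0.316 and 1.32 at 5-20%, 0.343 and 0.339 at 30%, 0.779 and 0.861 at 40% and 1.52 and 3.08 at 50%. The arrays at 0% and 50% lay above the 5-20% range, and those at 30% and 40% lay within it. In LS, MDH1 had 3.91 and 0.318 at 0%, 0.239, 0.971 and 1.92 at 5-20%, 0.991 and 2.07 at 30%, 12.7 and 7.25 at 40% and 31.1 and 0.257 at 50%. Its 2 LS arrays at 50% differed 121-fold, the widest gap between replicates of any member.

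Ordered by the geometric mean of the 2 arrays of a group, the HS level was highest at 0% for CIT1, KGD1, KGD2, LSC1, LSC2 and MDH1, at 5% for ACO1 and FUM1, and at 50% for IDH1 and IDH2. In LS it was highest at 40% for 8 members and at 50% for LSC2 and FUM1, and without the 6 arrays it was highest on the remaining array at 50% for all 10. The widest HS range was that of MDH1, with 4.37 at 0% and 0.314 at 20%, and the narrowest that of ACO1, with 2.16 at 5% and 0.544 at 40%. In LS the range was widest for IDH2, with 6.75 at 40% and 0.166 at 5%, where the low value rests on 1 of the 6 arrays, and narrowest for LSC1, with 1.99 at 40% and 0.537 at 20%. The lowest HS level lay at 30% for 6 members, at 20% for LSC2 and MDH1 and at 40% for ACO1 and FUM1. For the tests below, 5, 10 and 20% were pooled into 1 low-sucrose level of 6 arrays per yeast. The members were not all level within it. In HS the geometric mean at 5 and 20% was 1.68 and 0.833 for CIT1, and 0.516 and 0.510 for LSC2. In LS it was 1.73 and 0.379 for MDH1, and 0.573 and 1.235 for LSC2. Counts with 5% alone as the low level are given further below.

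Comparing 5-20% with 0% sucrose asks how these genes answered the presence of sugar. In HS, KGD2 and LSC2 were lower with sugar, CIT1, IDH1, KGD1, LSC1 and MDH1 were lower without passing the test, and ACO1, IDH2 and FUM1 lay between -0.32 and 0.60 on the log2 scale. KGD2 fell by 2.49 ± 0.67 on the log2 scale (SE, limma; 5.63-fold; Benjamini-Hochberg adjusted p = 0.0224). LSC2 fell by 3.46 ± 0.72 (11.0-fold; limma adjusted p = 0.00397). These are 2 of 10 members, where 5.51% of all 5498 probe sets were called lower. The log2 differences of the other members that lay below 0 were -3.27 for MDH1, -2.46 for KGD1, -1.64 for LSC1, -1.21 for CIT1, -0.83 for IDH1 and -0.32 for IDH2. ACO1 and FUM1 had 0.44 and 0.60, with 95% intervals of -1.08 to 1.96 and -1.08 to 2.27. For 8 members the 2 HS groups did not overlap, with FUM1 higher and CIT1, IDH1, KGD1, KGD2, LSC1, LSC2 and MDH1 lower with sugar, where 51.0% of all probe sets did not overlap either. The median over the 10 was -1.42, beside 0.31 over all probe sets and 1.05 over the S. pombe probe sets, whose part in the result was not tested.

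With the 6 LS arrays left out of the shared estimate of spread, the HS differences stayed as they were and KGD1, KGD2, LSC1, LSC2 and MDH1 were called lower, 5 members, where 14.2% of all probe sets were. Without either HS array at 0% no member was called, with limma adjusted p for LSC2 of 0.0803 and 0.0737, and without the second HS array at 10% or the first at 20% only LSC2 was, with KGD2 at 0.0502 and 0.0532. In LS no member was called (limma, 1 of 10 members and 387 of 5498 probe sets at an unadjusted p under 0.05). Of all probe sets 0.109% were called in either direction. CIT1 and ACO1, at -1.76 ± 0.85 and -1.66 ± 0.73, were the members whose LS groups did not overlap, as was so for 3.86% of all probe sets. Without the 6 arrays 1 LS array at 0% remains. Against it ACO1 had -2.51 ± 0.62, and the median over the members was -1.41. The difference between the yeasts in this response was called for none of the 10 (limma; 1 at an unadjusted p under 0.05), where 0.655% of all probe sets were called, and for none without the 6 arrays, where 1.38% were.

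Succinate dehydrogenase, complex II of the respiratory chain, carries out the step between the ligase and fumarase. SDH2, its iron-sulphur subunit, had 11.4 and 10.4 in HS at 0%, 0.455, 0.687 and 1.22 at 5-20%, 0.352 and 0.645 at 30%, 1.02 and 1.69 at 40% and 3.81 and 14.8 at 50%. 3 of its 5 listed genes fell at 5-20%, SDH2 by 3.93 ± 0.94, SDH1 by 3.49 ± 0.71 and SDH4 by 3.11 ± 0.95 (limma adjusted p = 0.0114, 0.00344 and 0.048), while SDH3 had -1.04 ± 0.98 (adjusted p = 0.64). Of the 7 measured isoenzymes outside the cycle, 2 fell, cytosolic isocitrate dehydrogenase IDP2 by 5.33 ± 0.86 and cytosolic malate dehydrogenase MDH2, an enzyme of gluconeogenesis, by 4.35 ± 0.72, and mitochondrial IDP1 rose by 2.21 ± 0.57, with a median of -1.83 over this list. Among 10 mitochondrial carriers the dicarboxylate carrier DIC1 rose by 4.57 ± 0.85 and the citrate-oxoglutarate carrier YHM2 by 1.88 ± 0.52, and the succinate-fumarate carrier SFC1 fell by 5.59 ± 0.88 and the pyruvate carrier subunit MPC3 by 4.49 ± 0.92 (limma adjusted p between 0.000555 and 0.0275 for these isoenzymes and carriers). Of all probe sets 2.84% were called higher and 5.51% lower here. The median was 1.12 over the carriers and -3.11 over the succinate dehydrogenase genes. Without the 6 LS arrays, 4 of the 5 succinate dehydrogenase genes, 4 isoenzymes and 2 carriers were called lower, where 14.2% of probe sets were. In that fit 1 isoenzyme and 5 carriers were called higher, where 20.0% of probe sets were. In the same fit 2 of the 7 genes of pyruvate entry were called lower, and 1 of the 8 regulators was called higher and 1 lower. On all 28 arrays limma called no gene of pyruvate entry, with LPD1, the lipoamide dehydrogenase shared by the 2-oxoglutarate and pyruvate complexes, at -1.87 ± 0.86 (adjusted p = 0.235), and no regulator. In LS none of these 37 genes was called on all arrays (3 at an unadjusted p under 0.05). Without the 6 arrays SDH2 was lower by 3.96 ± 0.63, against the 1 LS array at 0% that remains, which had 7.96. The LS array at 0% left out had 0.616, within the range of 0.0909 to 0.783 on the LS arrays at 5-20%. On all arrays SDH1 to SDH4 and LPD1 lay between -2.76 (SDH2) and -0.29 (LPD1). SFC1 was the listed gene whose response differed between the yeasts, lower in HS by 5.68 ± 1.24 (limma interaction, adjusted p = 0.0403; 0.418% of all probe sets were lower; 3 of the 37 were called without the 6 arrays, where 1.38% of probe sets were), and SDH1 to SDH4 and LPD1 lay between -2.38 and -0.01 there.

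**Figure D2:**
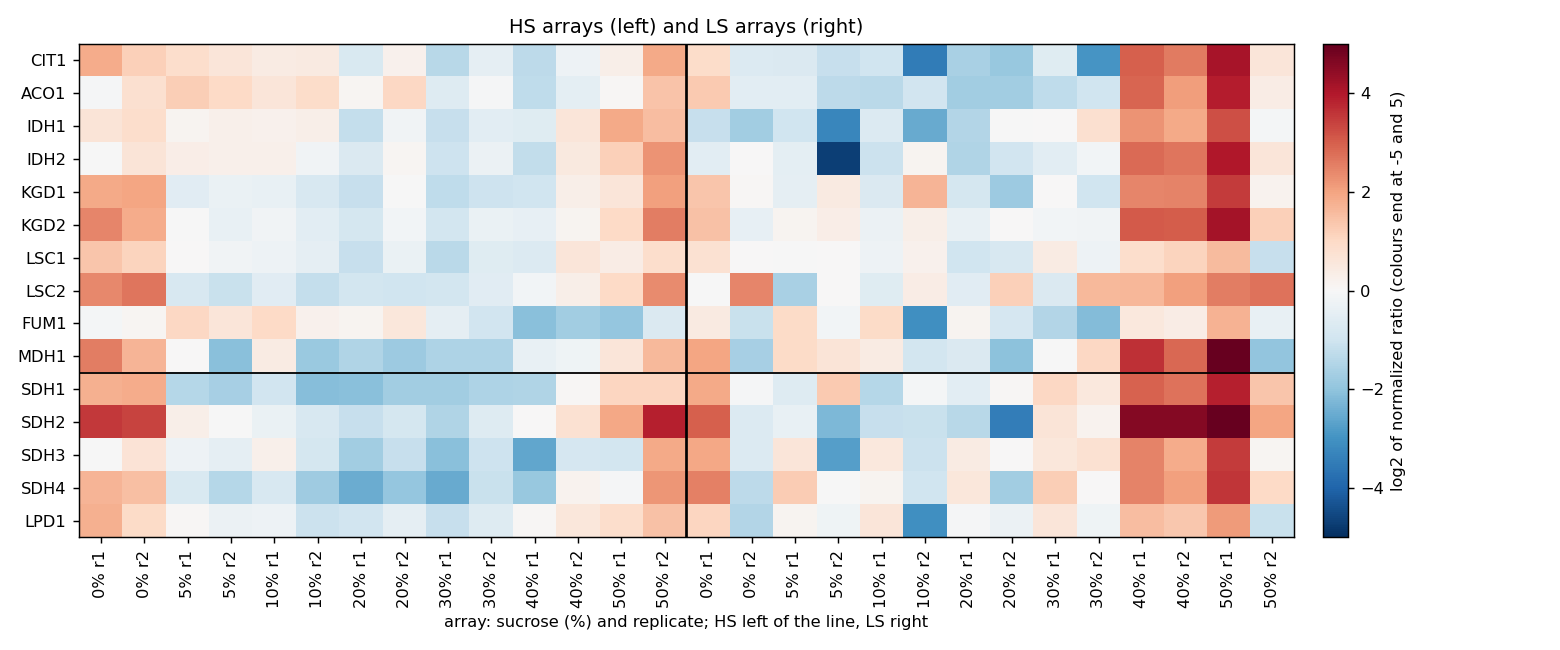
Log2 normalized ratio of the 10 members (above the line) and of SDH1 to SDH4 and LPD1 (below it) on each array, HS left and LS right, ordered by sucrose (%) and replicate (r1, r2). Red is above and blue below the median of the gene, and colours end at -5 and 5. The HS arrays at 40% hold blue cells among the members, while the 2 LS arrays at 40% and the first at 50% are red for all 10.

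Comparisons of 30, 40 and 50% with 5-20% sucrose ask how the genes answered high sugar. At 30% no member was called in HS (limma, 0 of 10 members and 135 of 5498 probe sets at an unadjusted p under 0.05). Of all probe sets 0.0182% were called, and 9 of the 10 differences of members lay below 0. ACO1 and FUM1, at -1.17 ± 0.73 and -1.30 ± 0.80, had HS arrays at 30% below all 6 at 5-20%, and 19.1% of all probe sets did not overlap here. Without the 6 LS arrays still none was called, with 3 at an unadjusted p under 0.05 and 1.04% of probe sets called. In LS at 30% none was called (limma, 1 member and 676 of 5498 probe sets at an unadjusted p under 0.05), where 0.491% of probe sets were. IDH1, at 1.89 ± 0.77, was the member whose arrays lay above the 5-20% range, where 7.97% of all probe sets did not overlap. When the 6 arrays were left out, the lone LS array at 30% was assumed to vary like the other groups, and FUM1 was called lower by 2.15 ± 0.50 (limma adjusted p = 0.0287), 1 of 10 members where 4.11% of probe sets were lower. SDH1 to SDH4 and LPD1 lay between -0.86 and 0.01 in HS and between 0.67 and 2.04 in LS at 30%, and none of the 37 other listed genes was called in either yeast on all arrays (limma; 0 in HS and 10 in LS at an unadjusted p under 0.05). When the 6 were left out none was called in HS (3 at an unadjusted p under 0.05) and 4 were in LS, all lower, where 6.38% of probe sets were called in either direction.

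At 40% sucrose no member passed the test in HS and 7 rose in LS, and the difference between the responses was called for CIT1 and ACO1. In HS none was called (limma, 2 of 10 members and 679 of 5498 probe sets at an unadjusted p under 0.05). Of all probe sets 2.42% were called in either direction. FUM1 had -2.53 ± 0.80 (limma adjusted p = 0.119) and ACO1 -1.69 ± 0.73 (0.318), and both had HS arrays at 40% below all 6 at 5-20%. LSC2 had 1.01 ± 0.72 with its arrays above that range, which makes 3 members without overlap where 38.6% of all probe sets had none, and the other 7 overlapped it, with differences between -1.08 (CIT1) and 0.86 (MDH1). Without the 6 LS arrays ACO1 and FUM1 were called lower (limma adjusted p = 0.0179 and 0.00051), 2 of 10 where 12.1% of probe sets were. SDH1 to SDH4 and LPD1 lay between -1.02 and 0.94, and 1 of the 37 other listed genes, IDP1, fell, by 2.68 ± 0.57 (adjusted p = 0.0143; 1.55% of all probe sets were lower). Without the 6 LS arrays 9 of the 37 were called, 4 higher and 5 lower, where 21.5% of probe sets were called in either direction.

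In LS at 40%, 7 of the 10 genes rose, where 9.73% of all probe sets were called higher, and all 10 differences lay above 0. CIT1 rose by 4.44 ± 0.85 (21.8-fold; limma adjusted p = 0.00133), IDH2 by 4.18 ± 0.89 (18.2-fold; 0.00292), ACO1 by 3.77 ± 0.73 (13.7-fold; 0.00144) and IDH1 by 3.57 ± 0.77 (11.9-fold; 0.00331). MDH1 rose by 3.55 ± 1.22 (limma adjusted p = 0.0496), KGD2 by 3.02 ± 0.67 (0.00388) and KGD1 by 2.76 ± 0.78 (0.0186). LSC2, LSC1 and FUM1 did not pass, at 2.06 ± 0.72, 1.30 ± 0.60 and 0.78 ± 0.80 (limma adjusted p = 0.0521, 0.142 and 0.539). For all members but FUM1 the 2 arrays at 40% lay above the 6 at 5-20%, and 29.5% of all probe sets did not overlap in this comparison. The median over the members was 3.29, beside -0.25 over all probe sets and -2.42 over the S. pombe probe sets. Without the 6 arrays the S. pombe difference was -0.915 and 9 members were called higher, all but FUM1 (-0.23 ± 0.40), where 22.0% of probe sets were; the part of the S. pombe signal in the result was not tested. Without the first LS array at 40% limma called CIT1 and ACO1 only, and without the second CIT1, ACO1 and IDH1. With each yeast fitted alone limma called 2. MDH1 was not called without the first or second LS array at 5%, the second at 10% or the second at 20% (limma adjusted p between 0.0646 and 0.0855).

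The difference of the 2 responses at 40% was itself tested. It was lower in HS for CIT1, by 5.52 ± 1.20 (limma interaction, adjusted p = 0.0447), and for ACO1, by 5.46 ± 1.03 (adjusted p = 0.0186), 2 of 10 members where 0.309% of all probe sets were lower. IDH2, IDH1, FUM1, KGD2, MDH1 and KGD1 had -4.57, -3.48, -3.31, -2.82, -2.69 and -2.56 without passing, and LSC2 and LSC1 had -1.05 and -0.94, with 95% intervals of -3.17 to 1.07 and -2.71 to 0.82. The median over the members was -3.07, beside 0.12 over all probe sets and 1.52 over the S. pombe probe sets. Without the 6 arrays the S. pombe difference was 0.0143 and 8 members were called lower, all but LSC1 and MDH1, where 12.8% of probe sets were. CIT1 and ACO1 lost their calls with 5% alone as the low level, and without any 1 of the 4 arrays at 40% (limma adjusted p for ACO1 between 0.0594 and 0.244). CIT1 also lost its call without the second LS array at 5%, either LS array at 20% or any 1 of the 6 HS arrays at 5-20% (adjusted p between 0.0597 and 0.098), and without the first LS array at 5% or 10% limma called 3 members in place of 2.

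**Figure D3:**
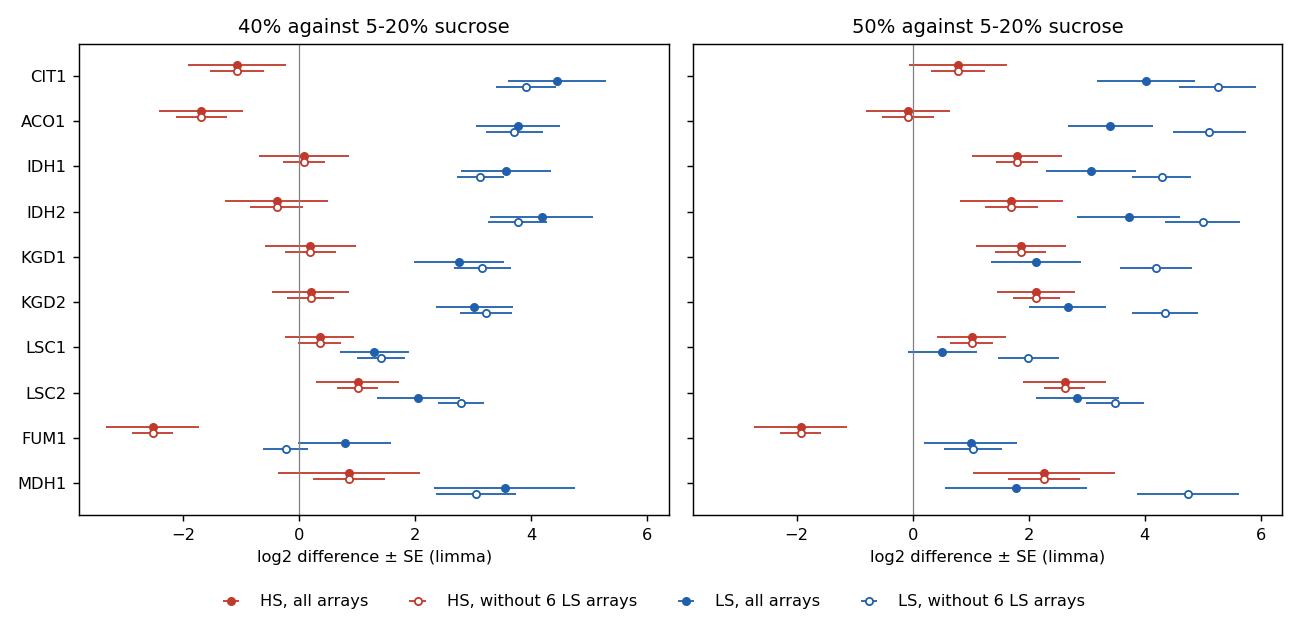
Log2 difference from 5-20% sucrose at 40% (left) and 50% (right) for each member, with bars of 1 SE from limma, HS in red and LS in blue, filled for all 28 arrays and open without the 6 LS arrays. At 40% the HS points lie left of the LS points for all 10 genes, and FUM1 in HS lies at -2.53 at 40% and -1.93 at 50%.

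At 50% sucrose KGD2 and LSC2 rose in HS and in LS, and CIT1, ACO1, IDH1 and IDH2 rose in LS. In HS, KGD2 rose by 2.13 ± 0.67 (4.37-fold; limma adjusted p = 0.0367) and LSC2 by 2.62 ± 0.72 (6.14-fold; 0.0178), 2 of 10 members where 8.00% of all probe sets were called higher. The members that did not pass had log2 differences of 2.26 for MDH1, 1.87 for KGD1, 1.80 for IDH1, 1.70 for IDH2, 1.02 for LSC1, 0.79 for CIT1, -0.08 for ACO1 and -1.93 for FUM1. CIT1 and ACO1 overlapped their 5-20% range, FUM1 lay below it and the other 7 lay above it, 8 members without overlap where 54.2% of all probe sets had none. The median over the members was 1.75, beside -0.135 over all probe sets and -0.308 over the S. pombe probe sets, whose part in the result was not tested. Without the 6 LS arrays, IDH1, IDH2, KGD1, KGD2, LSC1, LSC2 and MDH1 were called higher, 7 of 10 where 21.4% of probe sets were, and FUM1 was called lower, where 25.9% were. No member was called with 5% alone as the low level, nor without the second HS array at 50%, with KGD2 and LSC2 at limma adjusted p of 0.508 and 0.333. LSC2 alone was called without any 1 of the HS arrays at 5% or 10% or the first at 20%.

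In LS at 50%, 6 members rose, where 11.0% of all probe sets were called higher: CIT1 by 4.03 ± 0.85 (16.3-fold; limma adjusted p = 0.00244), IDH2 by 3.73 ± 0.89 (0.00571), ACO1 by 3.41 ± 0.73 (0.00264), IDH1 by 3.07 ± 0.77 (0.00763), LSC2 by 2.84 ± 0.72 (0.00778) and KGD2 by 2.67 ± 0.67 (0.00735). KGD1, MDH1, FUM1 and LSC1 had 2.13 ± 0.78, 1.78 ± 1.22, 1.001 ± 0.80 and 0.51 ± 0.60 (limma adjusted p between 0.0568 and 0.567). The first array stood above the 5-20% range for every member, while the second lay above it for 5 members, inside it for IDH1, KGD1, FUM1 and MDH1, and below it for LSC1, which leaves 5 members without overlap where 22.3% of all probe sets had none. The median over the members was 2.76, beside -0.26 over all probe sets and 0.165 over the S. pombe probe sets (0.429 without the 6 arrays), whose part in the result was not tested. No member was called with array weights, and 1 was with each yeast fitted alone. The SE rests on a spread shared by all groups. Among the 6 called members, the 2 LS arrays at 50% differed between 1.11 times (LSC2) and 11.6 times (ACO1). Without the first LS array at 50% limma called LSC2 only, and without the second 8 members. Without the 6 arrays 9 members were called higher, all but FUM1 (1.04 ± 0.50), where 22.9% of probe sets were, but this rests on 1 LS array at 50%. The difference of the responses at 50% was called for none of the 10 on all arrays (limma; 3 at an unadjusted p under 0.05), where 0.491% of probe sets were, for 1 without the second LS array at 50%, and for CIT1, ACO1, IDH1, IDH2 and FUM1, lower in HS, without the 6 arrays, where 6.04% were.

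The other genes of the pathway were also followed at high sugar. SDH2 had 7.96 and 0.616 in LS at 0%, 0.0909, 0.414 and 0.783 at 5-20%, 1.57 and 1.14 at 30%, 23.9 and 24.3 at 40% and 60.8 and 3.92 at 50%. Succinate dehydrogenase had 2 of 5 genes higher in LS at 40%, HS at 50% and LS at 50%, in each case SDH2 and SDH1. Of all probe sets 9.73%, 8.00% and 11.0% were called higher, in the same order. SDH2 rose by 6.21 ± 0.94 in LS at 40%, 3.39 ± 0.94 in HS at 50% and 5.57 ± 0.94 in LS at 50%, and SDH1 by 3.05 ± 0.71, 2.75 ± 0.71 and 2.85 ± 0.71 in the same order (limma adjusted p between 0.000235 and 0.0192). SDH3 and SDH4 had 2.55 and 2.39, 1.20 and 2.61, and 2.19 and 2.42 in these 3 comparisons without passing. LPD1 did not pass either, at 1.94, 1.67 and 0.98. In the pyruvate entry list limma called 0 of 7, 0 of 7 and 1 of 7 genes in these comparisons, the last being pyruvate carboxylase PYC1 in LS at 50%, higher by 2.14 ± 0.68 (limma adjusted p = 0.03). Median log2 differences over the succinate dehydrogenase genes were 2.55, 2.61 and 2.42 in the same order.

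In the same 3 comparisons 9.73%, 8.00% and 11.0% of all probe sets were called higher. Isoenzymes outside the cycle rose in 4 of 7 measured genes in each of them. Among the called ones, the largest in LS at 40% were IDP2 at 4.23, the peroxisomal isocitrate dehydrogenase IDP3 at 3.87 and MDH2 at 3.58, in HS at 50% the mitochondrial citrate and methylcitrate synthase CIT3 at 5.19, IDP2 at 4.84 and MDH2 at 4.53, and in LS at 50% IDP2 at 5.10, IDP3 at 4.04 and peroxisomal MDH3 at 3.08. Medians over this list were 3.58, 4.04 and 3.01. IDP1 fell by 3.47 ± 0.57 in HS at 50% (limma adjusted p between 0.000353 and 0.0185 for these isoenzymes). Of the 10 mitochondrial carriers 3 rose and 2 fell in LS at 40%, and 2 rose and 2 fell in HS and in LS at 50%, where 8.17%, 7.06% and 11.1% of all probe sets were called lower in these comparisons. SFC1 rose by 5.10 ± 0.88, 5.88 ± 0.88 and 4.90 ± 0.88 and MPC3 by 4.57 ± 0.92, 5.36 ± 0.92 and 4.34 ± 0.92 in these comparisons, and the citrate carrier CTP1 fell by 3.38 ± 0.66, 2.38 ± 0.66 and 3.12 ± 0.66 (limma adjusted p between 0.000244 and 0.0199). Among the 8 regulators, HAP4, the activating subunit of the Hap complex, rose by 4.40 ± 0.81 and HAP2 by 2.96 ± 0.62 in LS at 40%, while HAP3 fell by 1.84 ± 0.56. HAP2 rose by 2.56 ± 0.62 in HS at 50%, and HAP4 and HAP2 by 3.76 ± 0.81 and 3.08 ± 0.62 in LS at 50% (limma adjusted p between 0.001 and 0.027 for these HAP genes). The retrograde genes RTG1, RTG2, RTG3 and MKS1 were not called in any of these 3 comparisons. With the 6 arrays left out, 3, 3 and 5 succinate dehydrogenase genes and 5, 5 and 5 isoenzymes were called higher in these comparisons. So were 3 of 10 carriers in each, 3, 1 and 3 of 8 regulators and 1, 1 and 3 of 7 pyruvate entry genes. Of all probe sets 22.0%, 21.4% and 22.9% were called higher there, the last resting on 1 LS array at 50%. Called lower were 4, 5 and 4 carriers and 1 isoenzyme in each, where 31.9%, 25.9% and 26.8% of all probe sets were. Lower too were 1, 1 and 0 regulators and 1, 2 and 0 genes of pyruvate entry. The HAP4 response at 40% was lower in HS than in LS by 5.35 ± 1.14 (limma interaction, adjusted p = 0.0406), while SDH1 to SDH4 and LPD1 lay between -5.34 and -1.12 in that test and between -2.18 and 0.69 in the one at 50%, with none of the 5 called on all arrays (limma; of the 37 listed genes 11 and 4 at an unadjusted p under 0.05). Of the 37, 13 and 4 were called in these tests without the 6 arrays, where 27.5% and 12.7% of probe sets were, among them SDH1 and SDH2, lower in HS at 40% with -2.76 ± 0.60 and -4.69 ± 0.67, and SDH2, lower at 50% with -3.51 ± 0.77 (limma adjusted p between 0.00155 and 0.0153).

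Set side by side at the same concentration, ACO1 was higher in HS at 5-20%, and ACO1 and KGD2 were lower in HS at 40%. At 5-20% ACO1 was higher in HS by 2.08 ± 0.51 (4.22-fold; limma adjusted p = 0.0285), 1 of 10 members where 1.04% of all probe sets were called higher. CIT1, IDH2 and IDH1 had 1.95 ± 0.60, 1.44 ± 0.63 and 1.42 ± 0.55 without passing (adjusted p = 0.0869, 0.212 and 0.159), and the other 6 members lay between -0.87 (MDH1) and 0.92 (FUM1). The S. pombe probe sets had a median difference of -2.66, or -1.17 without the 6 arrays, and their part in the result was not tested. Without the 6 arrays CIT1 and ACO1 were called, by 1.42 ± 0.40 and 2.02 ± 0.38, 2 of 10 where 5.77% of probe sets were. ACO1 was not called without any 1 of the 6 HS arrays, or of the second LS arrays at 5, 10 and 20% (adjusted p between 0.0559 and 0.102), and 3 members were called without the first LS array at 5% or at 10%.

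At 40% all 10 members were lower in HS than in LS with no overlap of the arrays. Of all probe sets, 65.5% did not overlap, counted in either direction. ACO1 was lower by 3.38 ± 0.89 (10.4-fold, limma adjusted p = 0.0391) and KGD2 by 3.19 ± 0.82 (9.11-fold, limma adjusted p = 0.0359). These 2 of 10 passed, where 3.36% of all probe sets were called lower. CIT1, MDH1, IDH2, KGD1, FUM1, IDH1, LSC2 and LSC1 had -3.57, -3.55, -3.13, -2.82, -2.39, -2.06, -1.78 and -1.02. None of the 6 arrays is in these 2 groups, so the differences stay the same without them. The smaller estimate of spread then put 9 members past the test, all but LSC1, where 15.8% of probe sets were. No member was called without any 1 of the 4 arrays at 40% (limma adjusted p for ACO1 between 0.0944 and 0.401), nor with quantile normalization. The median over the members was -2.98, beside 0.11 over all probe sets and -1.15 over the S. pombe probe sets, whose part in the result was not tested. Of the other listed genes SDH1, SDH2, MDH3, SFC1 and HAP4 were also lower in HS at 40%, by 3.56 ± 0.87, 4.20 ± 1.15, 3.42 ± 0.91, 3.86 ± 1.07 and 4.74 ± 0.99 (limma adjusted p between 0.0117 and 0.0489), and SDH3, SDH4 and LPD1 had -3.88, -3.11 and -1.14. Without the 6 LS arrays 21 of the 37 were called, 3 higher and 18 lower, among them SDH3 and SDH4 (limma adjusted p = 0.00538 and 0.0126), where 29.7% of probe sets were called in either direction.

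At 0, 30 and 50% no member was called between HS and LS on all arrays, where 0.818%, 0.146% and 0.964% of all probe sets were called. At an unadjusted limma p under 0.05 there were 1, 0 and 0 of 10 members, and 717, 445 and 857 of 5498 probe sets. At 0% the differences lay between -0.02 (ACO1) and 2.21 (IDH1), and without the 6 arrays IDH1 and LSC2 were called higher in HS, by 1.93 ± 0.55 and 2.56 ± 0.53, where 4.51% of probe sets were, against the 1 LS array that remains, which for LSC2 had 0.983 while the array left out had 5.46. At 30% they lay between -2.07 (MDH1) and 1.11 (FUM1), and none was called without the 6 arrays (1 at an unadjusted p under 0.05), where 1.31% were. At 50% they lay between -2.01 (FUM1) and 0.43 (LSC1), and without the 6 arrays CIT1, ACO1, IDH2, KGD1, KGD2, FUM1 and MDH1 were called lower in HS, 7 of 10 where 10.1% were, again against 1 LS array. SDH1 to SDH4 and LPD1 lay between -0.31 and 2.30 at 0%, -1.45 and 1.14 at 5-20%, -2.43 and -1.08 at 30% and -1.55 and 0.68 at 50%, with none called on all arrays. With those arrays left out SDH4 was called lower in HS at 5-20%, with -2.19 ± 0.56, and SDH1 and SDH2 at 50%, against 1 LS array, with -2.80 ± 0.60 and -3.02 ± 0.67 (limma adjusted p between 0.0116 and 0.0229). Of the 37 listed genes 8, 2, 0 and 10 were then called at 0, 5-20, 30 and 50% (9 at 30% at an unadjusted p under 0.05), where 11.8%, 15.4%, 1.31% and 17.4% of probe sets were. The median S. pombe difference was -3.50 at 0%, -1.24 at 30% and -3.17 at 50%, or -1.18, 0.373 and -1.77 without the 6 arrays, and its part in these results was not tested.

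The members differed among themselves in how they followed one another. As a description over the 14 HS arrays, which share these arrays and their sucrose levels, Pearson's r of log2 ratios over the 45 pairs of members had a median of 0.704 and ran between -0.284 and 0.970. It was below 0 in 7 pairs, all of them with FUM1. In LS the median was 0.675 over 14 arrays, with 1 pair below 0, also with FUM1, and 0.920 over the 8 arrays that remain without the 6. Over the 7 HS group means, r with the mean of the other 9 members was highest for KGD1 (0.950) and KGD2 (0.943) and lowest for FUM1 (-0.112) and ACO1 (0.373). In LS it was highest for ACO1 (0.985) and KGD2 (0.984) and lowest for FUM1 (0.554).

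**Figure D4:**
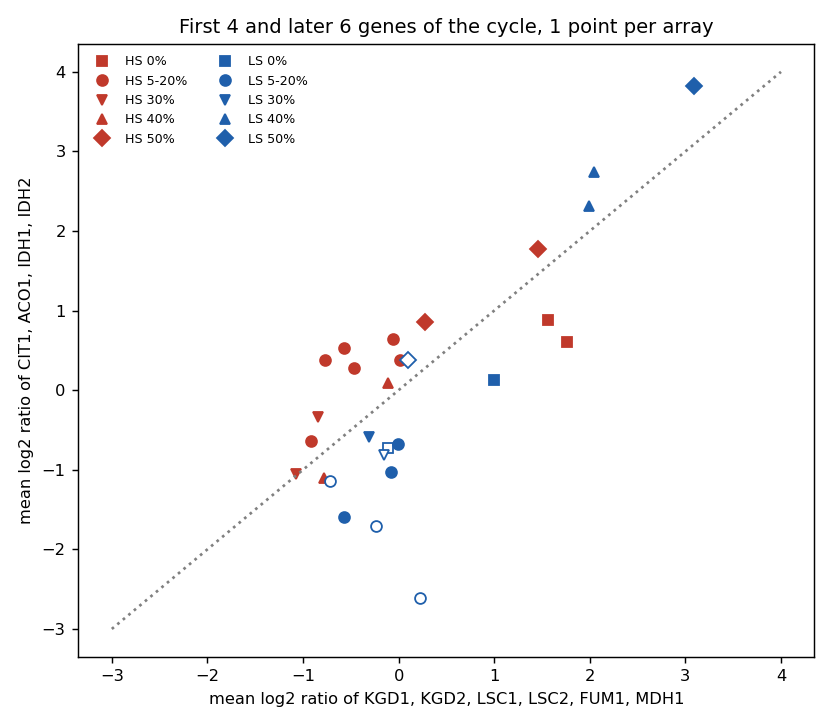
Mean log2 ratio of CIT1, ACO1, IDH1 and IDH2 against that of the other 6 members, 1 point per array, with symbols for the sucrose level and open symbols for the 6 LS arrays that stand apart (median S. pombe ratio over 1). The dotted line marks equal means. HS arrays at 5-20% lie above the line and all arrays at 0% lie below it.

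The first 4 genes of the cycle, CIT1 to IDH2, and the later 6 were also set against each other on each array, as the mean log2 ratio of the first 4 minus that of the later 6. In HS this difference was -1.16 and -0.69 at 0%, 0.27, 0.72 and 1.15 (lowest, median, highest of 6 arrays) at 5-20%, 0.02 and 0.51 at 30%, -0.32 and 0.20 at 40%, and 0.31 and 0.58 at 50%. All 6 HS arrays at 5-20% therefore had the first 4 genes relatively higher, and both arrays at 0% had them relatively lower. In LS it was -0.87 and -0.62 at 0%, -2.84, -0.98 and -0.42 at 5-20%, -0.67 and -0.28 at 30%, 0.33 and 0.71 at 40%, and 0.28 and 0.73 at 50%. The LS arrays at 40 and 50% were the LS arrays above 0, and the lowest LS value came from 1 of the 6 arrays, with -1.02 as the lowest without them. The split into first and later genes follows the order of the reactions, and it was chosen with these values known, so it was not tested.

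Outside the members, the probe sets whose 14 group means followed the mean of the 10 most closely were those of PIL1 (Pearson's r = 0.972), a core component of the eisosomes of the plasma membrane, the peroxisomal malate dehydrogenase MDH3 (0.971), YIM1 (0.969), SHH4 (0.965), a homologue of SDH4, and SDH2 (0.964). Over the 7 HS group means they were KNH1 (0.994), PAM17 (0.991), a subunit of the mitochondrial import motor, SSD1 (0.988), TES1 (0.987), the peroxisomal acyl-CoA thioesterase, and SAF1 (0.986). With 14 or 7 means and 5498 probe sets these are descriptions of these arrays, with no test, and 6 of the 7 LS means hold 1 of the 6 arrays.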

How the data were processed

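Transcripts were measured on 28 Affymetrix arrays, 2 per group of yeast and sucrose concentration. The deposited values are a normalized ratio on a linear scale, which the authors made, per the series design text, in GeneSpring 7.0 by scaling each chip on positive genes without S. pombe and then scaling each gene. The median ratio was 1 (within 0.006) for 97.7% of S. cerevisiae probe sets. How probes were summarised into a probe set, like the genome build behind the array, is not given in these sources. Log2 ratios of 5498 named S. cerevisiae probe sets were tested, without further scaling, pseudocount or filter.

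Limma 3.58.1 under R 4.3.3 fitted 1 mean for each of the 14 groups. Empirical Bayes moderation used no trend, and residual and prior degrees of freedom were 14 and 5.41 (8 and 3.97 without the 6 LS arrays). With those left out, the HS groups and LS at 40% alone keep 2 arrays each and give the spread. The level at 5-20% is the equal mean of the 5, 10 and 20% groups. A difference is that of the group named first less the other, ± SE. In each of 16 comparisons, 2-sided p-values were adjusted by Benjamini-Hochberg over all 5498 probe sets, and a call is an adjusted p under 0.05. Counts over all probe sets at an unadjusted p under 0.05 are given on all arrays only. For the HS minus LS response they were 470 at 5-20% against 0%, 673 at 40% and 629 at 50%. The comparisons within a yeast share their 5-20% arrays. The number of arrays limits the precision.

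Named were all 10 members, SDH1 to SDH4 and LPD1, up to 3 called genes per pathway list and comparison with the largest change (some left out for length), and the 5 probe sets most like the members' mean. The lists hold succinate dehydrogenase (SDH1 to SDH4, EMI5), isoenzymes (CIT2, CIT3, IDP1 to IDP3, MDH2, MDH3), pyruvate entry (PDA1, PDB1, LAT1, PDX1, LPD1, PYC1, PYC2), carriers (CTP1, ODC1, ODC2, DIC1, OAC1, SFC1, YHM2, MPC1 to MPC3) and regulators (RTG1 to RTG3, MKS1, HAP2 to HAP5). Members, lists and the leaving out of the 6 arrays were chosen with earlier results of these data known. Symbols and locus tags come from the platform annotation and RefSeq tables, with 12 outdated symbols updated. No coordinates or sequences are printed, since no build is named. The fit was tested on simulated data. Plots were drawn with matplotlib 3.10.9.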

Additional observations from a re-analysis of the deposited data

Results flagged for a closer look

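In the 5-20% groups of 6 arrays, 20 tests for a single outlying array were made on log2 ratios, 1 per member and yeast, where the gap of the extreme array to its neighbour is divided by the whole range and compared with Dixon's critical value of 0.625. Chance flags about 1 group in 20, and 2 passed. IDH1 in HS passed with 0.67, from the first HS array at 20%. Its ratio of 0.443 lay below 0.879 to 1.23 on the other 5. The second HS array at 20% had 0.879, the lowest of those 5, and an effect of concentration was not tested. IDH2 in LS passed with 0.663, from the second LS array at 5%, 1 of the 6 arrays with a high S. pombe median, whose ratio of 0.0384 lay below 0.352 to 1.09 on the other 5.

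The responses of HS and LS differed, by the interaction test in limma, for 4 genes of the members and lists. For 5-20% against 0%, SFC1 had -5.68 (HS minus LS response, log2; adjusted p = 0.0403). Its ratios were 0.0424 to 0.883 at 5-20% and 12.6 and 14.2 at 0% in HS, and 0.0844 to 5.96 at 5-20% and 0.386 and 1.16 at 0% in LS. For 40% against 5-20%, CIT1 had -5.52 (adjusted p = 0.0447), ACO1 had -5.46 (adjusted p = 0.0186) and HAP4 had -5.35 (adjusted p = 0.0406). HAP4 ratios were 0.435 and 0.587 at 40% and 0.645 to 1.49 at 5-20% in HS, and 10.2 and 18.0 at 40% and 0.318 to 1.21 at 5-20% in LS.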

How the results depend on the processing

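Of the 22 differences called for members in the 16 comparisons, none changed sign under the alternatives, and of their 423 alternative values 323 stayed called and 100 lost the call. Some alternatives could not change a sign, since they keep the member differences as they were. These are the mean of probe sets, the low-median filter, the robust variance trend, the replicate block and each yeast fitted alone. Leaving out the 6 LS arrays also keeps the differences within HS. The 423 values include these cases, so the lack of sign changes rests on the other alternatives. Of 138 differences not called, none both changed sign and was called, while 17 changed sign without the 6 arrays, 12 under quantile normalization, 5 of 100 with 5% alone as the low level, 3 under median centring, 1 with the offset and between 0 and 12 with 1 array left out, the most being 12 of 24 without the first LS array at 50%. The counts of members called below are given beside those in the report, and their causes were not tested except that leaving out arrays leaves fewer of them.

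For HS at 5-20% against 0% (2 called), quantile normalization gave 5, a variance trend with robust moderation 1, array weights 6, leaving out the 6 LS arrays 5, each yeast alone 5 and 5% alone as the low level 1. For HS at 30% (0) array weights gave 2, and for LS at 30% (0) leaving out the 6 gave 1. For HS at 40% (0), quantile normalization, array weights, leaving out the 6 and each yeast alone gave 2 each. For LS at 40% (7) each yeast alone gave 2. For HS at 50% (2), quantile normalization gave 5, the robust trend 1, array weights 6, leaving out the 6 arrays 8, each yeast alone 7 and 5% alone 0. For LS at 50% (6) array weights gave 0 and each yeast alone 1. For HS against LS at 0% (0) and at 50% (0), leaving out the 6 gave 2 and 7. At 5-20% (1) quantile normalization gave 3, array weights 0, leaving out the 6 gave 2 and 5% alone 0. At 40% (2) quantile normalization gave 0, the robust trend 1, array weights 9 and leaving out the 6 gave 9. For the HS minus LS response at 40% (2), array weights gave 6, leaving out the 6 gave 8 and 5% alone 0, and at 50% (0) leaving out the 6 gave 5.

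With 1 array left out at a time the counts ran between 0 and 2 for HS at 5-20% against 0%, 2 and 7 for LS at 40%, 0 and 2 for HS at 50%, 1 and 8 for LS at 50%, 0 and 3 for HS against LS at 5-20%, 0 and 0 at 40%, 0 and 3 for the response at 40% and 0 and 1 for that at 50%. They stayed at 0 in the other 8 comparisons.

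Replicate numbers are shared between groups, but the labels do not say that they mark a shared culture or day. Deviations of same-numbered arrays correlated at -0.021 to 0.427 over 21 pairs of HS groups (18 over 0.1) and at -0.15 to 0.714 over 21 pairs of LS groups (15 over 0.1). With the replicate block, 4 members were called for HS at 5-20% against 0%, 1 for HS at 40%, 2 for HS against LS at 5-20%, 4 for the response at 40% and 1 for that at 50%, with the other counts within 1.5 times of those in the report. An offset before the log, median centring, a filter on low medians and the mean of all probe sets of a gene moved no count by more than 1.5 times. The filter and the mean of probe sets left the values of the members as they were, since each member has 1 probe set and a median ratio of 1. With these, a count could move only through the other probe sets.

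With 2 arrays per group, 1 array often decided a call. Signal over background was not analysed here, since the deposited ratios carry none.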
